A study of Mus musculus with 12 samples.

Results

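Rasd1 and 9 genes of the RGS family (Rgs2, Rgs3, Rgs4, Rgs5, Rgs10, Rgs12, Rgs14, Rgs16 and Rgs19) were followed by their symbols in RNA sequencing counts of mouse epididymal white adipocytes, 10 genes of the 20295 in the table. The genes were chosen on measured values of these libraries: Rasd1 stood out in earlier results of the same libraries for its lower level with ISO and with lipase inhibitors, and the RGS genes were added with those results known, by which of their values is not recorded. Adjusted p given for the 10 genes therefore describe them and are no independent evidence. All libraries came from mature adipocytes that were floated from collagenase-digested fat of lean male C57/BL6J mice, embedded in a hydrogel at 50000 cells per well and treated at day 2 of culture. The 4 groups of 3 libraries were vehicle (DMSO), ISO for 3 h (isoproterenol, an agonist of the beta-adrenergic receptors), inhibitors of ATGL and HSL, the lipases that break down stored triglyceride (Lip), and the inhibitors followed by ISO for 3 h (Lip+ISO). The comparisons ask how the transcripts responded to ISO without and with these lipase inhibitors. Pairs of comparisons share libraries and are not independent of each other.

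G-protein-coupled receptors act through heterotrimeric G proteins, whose alpha subunit is active while it holds GTP. RGS proteins (regulators of G-protein signaling) speed up the hydrolysis of that GTP and so end the signal, mostly for alpha subunits of the Gi and Gq classes. Beta-adrenergic receptors of adipocytes signal through Gs, which raises cyclic AMP and starts lipolysis. Rasd1 encodes a Ras-like GTPase, first known as a dexamethasone-induced gene, that modulates signaling through Gi and its beta-gamma subunits.

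Libraries held 22632220 to 43707557 counts over genes, and 13543 genes had enough counts to be tested. Of the 10 genes, 9 were tested. Rgs14 was not, with 3 to 10 counts per library. Adipocyte markers summed to between 22837 and 35728 CPM (counts scaled to a library of 1000000 by TMM) in every library. Lep was lower in ISO than in vehicle (log2 -1.84, edgeR, adjusted p = 1.9e-04) and in Lip+ISO than in Lip (-1.67, adjusted p = 2.4e-04). Lipe was lower in Lip+ISO than in ISO (-0.65, adjusted p = 0.0165) and than in Lip (-0.44, adjusted p = 0.0416). No other adipocyte marker on the list was called. The sum of 7 macrophage markers was 43.6 to 58.1 CPM in vehicle, 87.2 to 131 in ISO, 45.1 to 52.9 in Lip and 53.2 to 98.1 in Lip+ISO, and 4 of 6 tested were higher in ISO than in vehicle. In the same comparison 3 of 7 fibroblast and preadipocyte markers were higher (Pdgfra, Col1a1 and Col3a1, sums of 318 to 565 CPM in vehicle and 633 to 836 in ISO). So were 1 of 5 mesothelial markers (Wt1) and 2 of 3 tested mast cell and granulocyte markers (Kit and S100a8), but 0 of 8 endothelial markers. Of all genes, 12.3% were called higher in ISO than in vehicle. Against ISO, Lip+ISO had lower levels of the same 3 fibroblast and preadipocyte markers, with log2 fold changes of -1.03, -0.73 and -0.84 (edgeR, adjusted p of 0.0131 to 0.0237), beside 4.59% of all genes called lower. Their list summed to 436 to 444 CPM in Lip and 378 to 524 in Lip+ISO. In these bulk libraries, fewer cells of a type and less RNA per cell cannot be told apart.

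Of the 10 genes, 4 lie on chromosome 1 (mm9): Rgs2 (NM_009061, 145846468 to 145851279, minus strand), Rgs4 (NM_009062, 171671608 to 171677773, minus strand), Rgs5 (NM_009063, 171585632 to 171623657, plus strand) and Rgs16 (NM_011267, 155587483 to 155592598, plus strand). Rgs4 and Rgs5 are neighbors on opposite strands, 47950 bp apart. Rasd1 (NM_009026) lies on chromosome 11 at 59776685 to 59778444 on the minus strand, and 124 of its 1483 counted bp overlap Med9 on the other strand. Reads from the shared stretch cannot be assigned to either gene, since nothing states that counting used strand. Med9, a subunit of the Mediator complex, averaged 57.2, 53.5, 57.4 and 55.1 CPM in vehicle, ISO, Lip and Lip+ISO, with log2 fold changes of -0.10 for ISO against vehicle, 0.01 for Lip against vehicle, 0.04 for Lip+ISO against ISO and -0.06 for Lip+ISO against Lip, which did not pass the test. Of the others, Rgs3 (NM_019492) lies on chromosome 4 at 62220881 to 62320881, Rgs10 (NM_026418) on chromosome 7 at 135517139 to 135561686, Rgs12 (NM_173402) on chromosome 5 at 35292097 to 35376242, Rgs14 (NM_016758) on chromosome 13 at 55471093 to 55486048, and Rgs19 (NM_026446) on chromosome 2 at 181423124 to 181428682. No other member overlapped a gene in the table.

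The sequences just before the starts of Rgs2 and Rgs16 are shown because these were the RGS genes with the largest log2 fold change with ISO, and their levels in Lip+ISO lay on opposite sides of those in ISO. Each line gives the 150 bases before the start, 5′ to 3′ on the gene's strand, from RefSeq for GRCm38.p6, with capitals marking TGACG. Rgs2 is at chr1:144004150-144004299 on the minus strand and Rgs16 at chr1:153740203-153740352 on the plus strand.
Rgs2: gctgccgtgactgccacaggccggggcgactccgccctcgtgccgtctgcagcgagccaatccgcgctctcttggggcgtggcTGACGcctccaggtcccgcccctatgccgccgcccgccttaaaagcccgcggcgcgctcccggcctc
Rgs16: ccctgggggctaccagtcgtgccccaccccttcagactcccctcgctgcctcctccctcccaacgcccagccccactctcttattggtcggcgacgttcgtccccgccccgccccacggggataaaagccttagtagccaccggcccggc
TGACG is the core of the site bound by CREB, the factor that cyclic AMP activates. It stood at -67 to -63 from the start of Rgs2 and not in the stretch of Rgs16. A CCAAT box stood at -94 to -90 of Rgs2 and, on the other strand, at -68 to -64 of Rgs16. In windows of 300 bases around the starts, 250 before and 50 after, 8 of the 10 genes had an entry, with 12 windows in all. TGACG on either strand was in 3 of these 12, against 20.81% of all 32851 windows in the table. Those windows were of Rgs2, with a further match at -185 to -181 on the other strand, of Rgs4 and of Rgs12. Of these, Rgs4 and Rgs12 did not pass in ISO against vehicle without the replicate block (edgeR, adjusted p = 0.265 and 0.203). CCAAT was in 4 of 12, against 37.41% of all windows. The E-box CACGTG was in 1 of 12 (7.15% of all). The full site TGACGTCA, which contains TGACG, was in 0 of 12 and in 1.79% of all windows. A match is a description of these letters and was not tested as a binding site.

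Expressed per kb of counted length, Rasd1 stood at the top of the 10 in vehicle, with 118 ± 16.7 CPM per kb (SD, n = 3). Rgs19 came next at 24.8 ± 0.0673, then Rgs5 at 9.83 ± 3.81 and Rgs16 at 9.04 ± 2.60, and the libraries of Rgs5 and Rgs16 overlapped. Rgs10, Rgs2 and Rgs4 lay between 2.63 and 3.29 CPM per kb with overlapping libraries, Rgs12 and Rgs3 overlapped at 1.17 and 0.812, and Rgs14 was lowest at 0.0776. In ISO the order changed. Rgs16 led with 36.4 ± 4.32 CPM per kb, and Rgs19 (23.3 ± 1.43) and Rasd1 (20.8 ± 2.94) followed with overlapping libraries. In Lip, Rasd1 was again first at 54.1 ± 12.5. In Lip+ISO the first 6 genes formed a chain of overlapping neighbors, from Rgs19 (20.3 ± 1.83) through Rgs2 (13.7 ± 4.42) and Rasd1 (11.99 ± 1.83) to Rgs16 (5.96 ± 1.08).

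**Figure D1:**
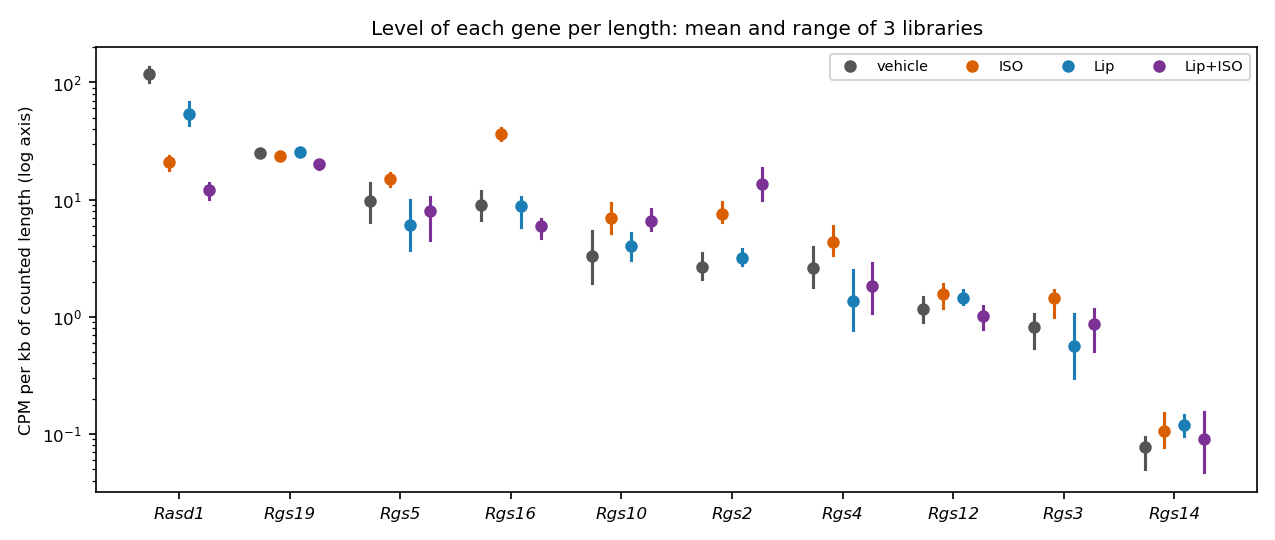
Levels of the 10 genes in CPM per kb of counted length on a log axis, with the mean (point) and the range (line) of 3 libraries in each group. Rasd1 is first in vehicle (118) and behind Rgs16 (36.4) and Rgs19 in ISO (20.8), and Rgs14 is last in every group.

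Rasd1 was measured at 200, 151 and 174 CPM in the 3 vehicle libraries and at 35.3, 26.6 and 30.8 CPM in the ISO libraries. It was at 100.45, 76.1 and 64.2 CPM with the lipase inhibitors and at 15.1, 17.7 and 20.5 CPM with inhibitors and ISO. No 2 of the 4 groups overlapped: vehicle was highest, followed by the inhibitors, ISO, and the combination. The differences that led to its choice are given as a description: the log2 fold change was -2.51 ± 0.18 (SE) for ISO against vehicle and -1.13 ± 0.17 for Lip against vehicle. Within replicate numbers, ISO against vehicle was -2.50 in each of the 3, and Lip against vehicle was -0.99, -0.98 and -1.44.

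The comparisons with the combination share libraries with those. Rasd1 fell by 2.17 ± 0.18 on the log2 scale from Lip to Lip+ISO (edgeR, adjusted p = 1.6e-06) and by 0.79 ± 0.18 from ISO to Lip+ISO (adjusted p = 0.0138), with all libraries of the combination below those of the other group each time. The second call was lost when replicate 2 or replicate 3 of every group was left out (adjusted p up to 0.0819). The response to ISO differed between cultures with and without inhibitors by 0.33 ± 0.24 (adjusted p = 0.606, 95% interval -0.19 to 0.86), so a difference in that response was not detected, which does not show that the responses were alike.

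**Figure D2:**
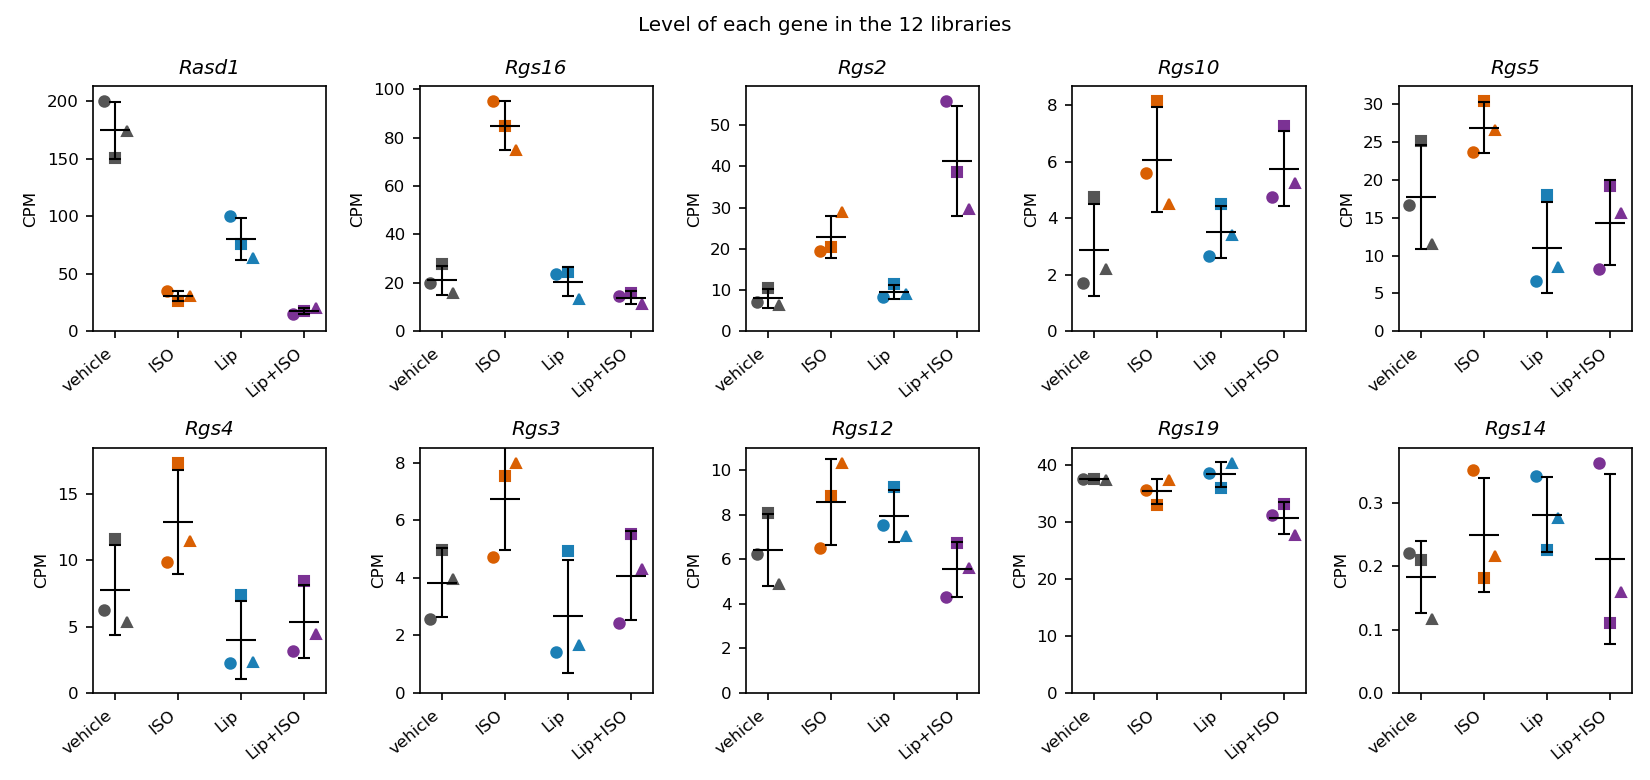
Level of each of the 10 genes in CPM in the 12 libraries, by group, with circles, squares and triangles for replicates 1, 2 and 3, and the mean ± SD in black. Rasd1 falls from a mean of 175 CPM in vehicle to 17.8 in Lip+ISO, Rgs16 is high in ISO alone (84.9), and Rgs2 is highest in Lip+ISO (41.3).

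Rgs16 encodes a small RGS protein that acts on Gi and Gq subunits. It was at 20.02, 27.7 and 15.7 CPM in vehicle, at 95.04, 84.9 and 74.9 CPM in ISO, at 23.6, 24.6 and 13.5 CPM in Lip, and at 14.8, 15.9 and 11.1 CPM in Lip+ISO. The ISO libraries stood above all 9 others, and the Lip+ISO libraries overlapped the low end of the vehicle and Lip groups. Rgs16 rose 4.03-fold with ISO (log2 2.01 ± 0.24, edgeR, adjusted p = 6.5e-05) and was 2.61 ± 0.25 lower on the log2 scale in Lip+ISO than in ISO (adjusted p = 4.1e-05). With the inhibitors present, ISO gave a log2 fold change of -0.56 ± 0.24 against Lip (adjusted p = 0.109). With a block for the replicate number it was -0.54, which passed (adjusted p = 0.00746), and Lip+ISO was below Lip in 3 of 3 numbers. Lip alone gave -0.04 ± 0.24 against vehicle.

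The response of Rgs16 to ISO with inhibitors differed from that without by -2.57 ± 0.34 on the log2 scale (interaction, edgeR, adjusted p = 0.00245). The gene was chosen with results of these libraries known, so this value is a description. Rgs16 was the sole member whose interaction passed. Of all genes, 0.901% had a higher and 0.724% a lower interaction by that rule. The call was lost without replicate 1 or without replicate 2 of every group (adjusted p up to 0.0726), and it held when any 1 of the 12 libraries was left out. The fibroblast and preadipocyte markers Pdgfra, Col1a1 and Col3a1 were also higher in ISO, and lower in Lip+ISO than in ISO. Their interactions were -0.81, -1.09 and -0.85 (edgeR, adjusted p = 0.294, 0.0521 and 0.144). The other markers of that list ran from -0.73 for Dpp4 to -0.03 for Pi16 (adjusted p of 0.565 or more), so no marker of the list passed. The part of these cells in the level of Rgs16 was not tested.

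Rgs2 encodes an RGS protein with a preference for Gq that can also inhibit adenylyl cyclase. Its level was 7.17, 10.5 and 6.26 CPM in vehicle, 19.5, 20.3 and 28.8 CPM in ISO, 8.28, 11.5 and 8.97 CPM in Lip, and 55.8, 38.6 and 29.6 CPM in Lip+ISO. The Lip+ISO libraries were the highest 3 of the 12, although the lowest of them exceeded the highest ISO library by less than 1 CPM. Rgs2 rose 2.87-fold with ISO (log2 1.52 ± 0.26, edgeR, adjusted p = 9.0e-04) and 4.31-fold with ISO in the presence of inhibitors (log2 2.11 ± 0.25, adjusted p = 4.3e-05). Both calls held in all 15 fits that left out libraries.

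Lip+ISO exceeded ISO for Rgs2 by 0.85 ± 0.24 (adjusted p = 0.0465), and this call held in 5 of those 15 fits, with an adjusted p of up to 0.296. It was lost without vehicle replicate 1, ISO replicate 1 or 2, any Lip library, or Lip+ISO replicate 1 or 2, and without replicate 1 or 2 of every group. The interaction of Rgs2 was 0.59 ± 0.35 (adjusted p = 0.512, 95% interval -0.18 to 1.35). Thus Rgs2 and Rgs16, both higher with ISO, were on opposite sides of ISO in Lip+ISO.

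Rgs10, an RGS protein of Gi subunits that is abundant in immune cells, was at 1.71, 4.74 and 2.19 CPM in vehicle and at 5.59, 8.14 and 4.50 CPM in ISO. It was at 2.68, 4.51 and 3.40 CPM in Lip and at 4.77, 7.26 and 5.24 CPM in Lip+ISO. Vehicle replicate 2 overlapped the ISO group, while within each replicate number ISO was the higher. Rgs10 rose by 1.096 ± 0.37 on the log2 scale with ISO (edgeR, adjusted p = 0.0424). That call was lost without vehicle replicate 1 or 3, ISO replicate 1 or 2, Lip replicate 3, or replicate 1 or 3 of every group (adjusted p up to 0.182). With the inhibitors, ISO gave 0.71 ± 0.36 (adjusted p = 0.178), and 0.71 (adjusted p = 0.0185) when the fit had a block for the replicate number. The macrophage markers, given above, moved in the same direction with ISO. Rgs10 was highest in replicate 2 of each group, as were the endothelial and mural marker sums given below. The macrophage sum was highest in replicate 2 in vehicle and Lip, in replicate 3 in ISO and in replicate 1 in Lip+ISO. The part of these cell types in the level of Rgs10 was not tested.

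Rgs19 encodes an RGS protein of Gi subunits, also named GAIP. It varied least between libraries, at 37.5, 37.6 and 37.4 CPM in vehicle, 35.7, 33.0 and 37.3 in ISO, 38.6, 35.9 and 40.4 in Lip, and 31.1, 33.2 and 27.7 in Lip+ISO. The Lip+ISO libraries lay below the Lip libraries by a small margin. Rgs19 fell by 0.32 ± 0.09 on the log2 scale from Lip to Lip+ISO (edgeR, adjusted p = 0.0150), a call lost without Lip replicate 1 or 3, Lip+ISO replicate 3, or replicate 1 or 3 of every group (adjusted p up to 0.174). ISO against vehicle was -0.09 ± 0.09 (adjusted p = 0.495).

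Rgs4 and Rgs5, small RGS proteins for Gi and Gq subunits, and Rgs3, a larger relative, did not pass the test in any comparison of the fit without a replicate block. Rgs5 is a common marker of pericytes. Rgs5 was at 16.6, 25.2 and 11.6 CPM in vehicle, 23.7, 30.4 and 26.6 in ISO, 6.66, 17.96 and 8.52 in Lip, and 8.17, 19.2 and 15.6 in Lip+ISO. Replicate 2 was the highest in each group, and within each replicate number ISO was above vehicle and Lip below it. Rgs4 was at 6.28, 11.6 and 5.33 CPM in vehicle, 9.91, 17.4 and 11.5 in ISO, 2.27, 7.40 and 2.32 in Lip, and 3.15, 8.45 and 4.45 in Lip+ISO. Its order over the replicate numbers was the same as that of Rgs5 in that replicate 2 was always highest. Rgs3 was at 2.56, 4.95 and 3.95 CPM in vehicle, 4.71, 7.55 and 8.0 in ISO, 1.41, 4.93 and 1.66 in Lip, and 2.43, 5.52 and 4.29 in Lip+ISO. Here replicate 2 was highest in 3 of 4 groups.

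For ISO against vehicle the log2 fold changes were 0.60 ± 0.37 for Rgs5, 0.75 ± 0.47 for Rgs4 and 0.83 ± 0.45 for Rgs3 (edgeR, adjusted p = 0.255, 0.265 and 0.192). With a block for the replicate number they were 0.63, 0.77 and 0.84, and each passed the test (adjusted p = 0.0467, 0.00919 and 0.0238). For Lip+ISO against ISO they were -0.91 ± 0.38, -1.27 ± 0.48 and -0.73 ± 0.45 (adjusted p = 0.165, 0.130 and 0.354), and the Lip+ISO libraries of Rgs4 and Rgs5 all lay below the ISO libraries. With the block, Rgs5 (-0.96, edgeR, adjusted p = 0.0140) and Rgs4 (-1.34, adjusted p = 8.9e-04) passed in Lip+ISO against ISO, and Rgs3 did not. Lip against vehicle gave -0.68 ± 0.38, -0.95 ± 0.49 and -0.52 ± 0.46, which did not pass with or without the block. When replicate 2 of every group was left out, Rgs4 passed in both comparisons (adjusted p = 0.0458 and 0.0184).

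Markers of vessel cells moved in part with these genes. The summed level of 8 endothelial markers was 107, 200 and 122 CPM in vehicle, 190, 367 and 286 in ISO, 55.2, 181 and 87.4 in Lip, and 79.0, 228 and 178 in Lip+ISO. As for Rgs5, replicate 2 was highest in each group, and within each number the sum was higher in ISO and lower in Lip than in vehicle. Their log2 fold changes for ISO against vehicle ran from 0.78 for Emcn to 1.11 for Esam, with adjusted p of 0.0709 or more.

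For a list of 10 mural cell markers (pericytes and smooth muscle), the summed level was 294 to 458 CPM in vehicle, 353 to 525 in ISO, 353 to 448 in Lip and 280 to 377 in Lip+ISO, with replicate 2 highest in each group and no marker at 0. Of the 10 markers, 3 rose with ISO, beside 12.3% of all genes: the pericyte genes Kcnj8 (log2 1.71 ± 0.28), Abcc9 (0.96 ± 0.25) and Pdgfrb (0.88 ± 0.22). The others did not pass, with Tagln at -0.02, Acta2 at -0.63 and the rest from 0.19 (Higd1b) to 0.73 (Notch3). All 10 were below 0 in Lip+ISO against ISO, from -0.70 for Pdgfrb to -0.13 for Acta2, with adjusted p of 0.0688 or more. In Lip against vehicle, Kcnj8 was at -0.75 and Abcc9 at -0.37, whereas Acta2, a smooth muscle gene with a large part of the sum, was at 0.55, and none of these passed. In Lip+ISO against Lip, Kcnj8 (1.89) and Abcc9 (0.75) were called higher and Acta2 (-1.31) lower (edgeR, adjusted p = 2.7e-04, 0.0412 and 0.00390). The part of endothelial and mural cells in the levels of Rgs3, Rgs4 and Rgs5 was not tested.

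**Figure D3:**
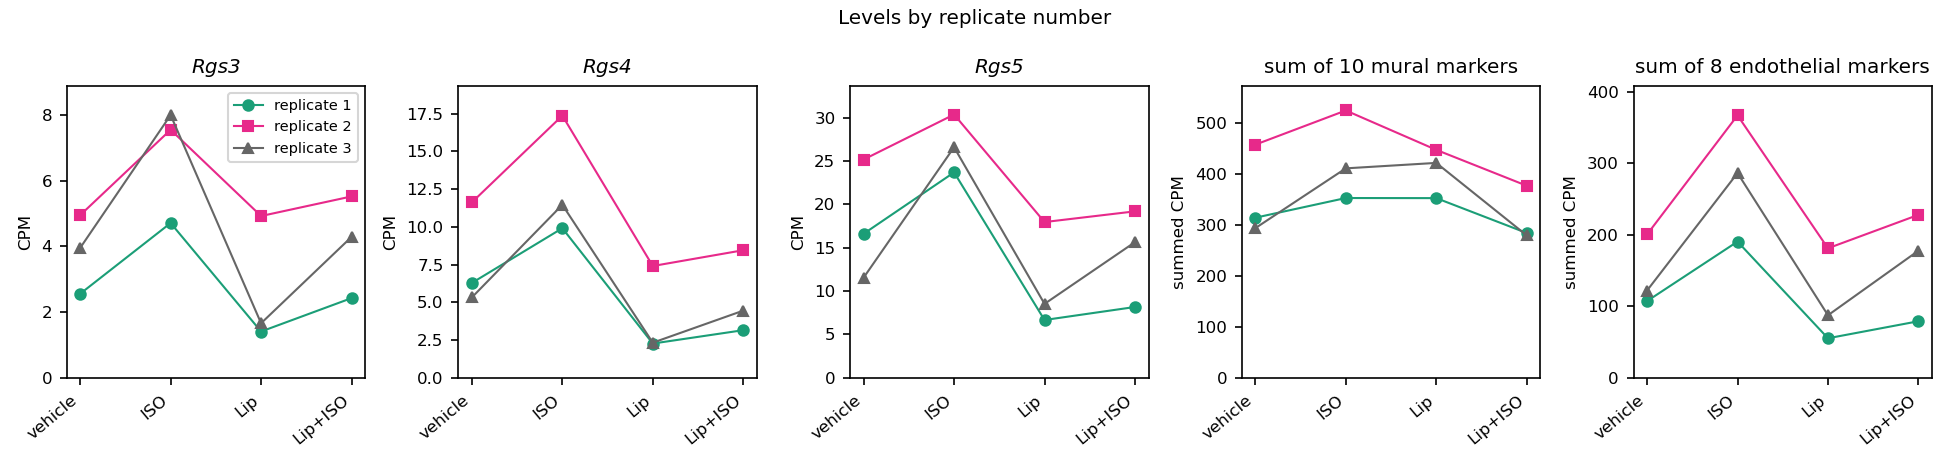
Levels of Rgs3, Rgs4 and Rgs5 in CPM and the summed CPM of 10 mural and of 8 endothelial markers in the 4 groups, with 1 line per replicate number; lines join libraries of the same number. Replicate 2 is the highest for Rgs4, Rgs5 and both marker sums in every group, and in each number the 3 genes and the endothelial sum are higher in ISO than in vehicle and lower in Lip.

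Rgs12 and Rgs14 encode large RGS proteins that act on Gi subunits and carry further domains. Rgs12 was at 6.22, 8.10 and 4.89 CPM in vehicle, 6.52, 8.86 and 10.3 in ISO, 7.56, 9.27 and 7.03 in Lip, and 4.29, 6.75 and 5.60 in Lip+ISO. Only Lip and Lip+ISO were separate, and that by a small gap. ISO against vehicle gave 0.42 ± 0.23 (adjusted p = 0.203) and Lip+ISO against ISO -0.63 ± 0.24 (adjusted p = 0.127). Under the replicate block, Lip+ISO against ISO was -0.64 (edgeR, adjusted p = 0.0374). Lip+ISO against Lip was -0.52 ± 0.24 (edgeR, adjusted p = 0.131), and -0.53 (adjusted p = 0.0484) under the replicate block. Its interaction was -0.94 ± 0.33 (adjusted p = 0.219). Rgs14 was between 0.111 and 0.364 CPM in all libraries, near the 0.0678 to 0.132 CPM that 3 counts make in them, and was not tested. Its Lip libraries (0.225 to 0.344 CPM, 7 to 10 counts) lay above those of vehicle (0.117 to 0.221 CPM, 3 to 7 counts). At so few counts no difference is read from this.

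In ISO against vehicle, 3 of the 9 tested genes were called higher (Rgs2, Rgs10 and Rgs16) and 1 lower (Rasd1), beside 12.3% of all genes called higher and 13.9% lower. With the replicate block 6 were higher and 1 lower, beside 18.8% and 19.6%. Scaling by library totals alone changed the share of higher genes among all calls from 47.1% to 37.0%. In Lip+ISO against Lip, Rgs2 was called higher and Rasd1 and Rgs19 lower, beside 11.5% and 15.8% of all genes. The block added Rgs10 higher, and Rgs12 and Rgs16 lower (-0.54, adjusted p = 0.00746 for Rgs16), for 2 higher and 4 lower beside 15.5% and 20.1%. Library totals alone shifted the median of all genes by -0.11 there and the share of higher calls from 42.2% to 26.5%. Of the 9, Rgs2 was called higher and Rasd1 and Rgs16 lower in Lip+ISO against ISO, beside 4.36% and 4.59%. In Lip against vehicle, 0 were higher and 1 lower (Rasd1, which was chosen on that difference), beside 0.00738% and 0.0443%. The members' median log2 fold change was 0.75 for ISO against vehicle, -0.04 for Lip against vehicle, -0.73 for Lip+ISO against ISO and 0.38 for Lip+ISO against Lip, whereas the medians of all genes were between -0.02 and 0.00. The genes were chosen with such results known, so these counts describe them and are no independent evidence.

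Groups that did not overlap were seen for 4 of the 9 genes in ISO against vehicle, 1 in Lip against vehicle, 5 in Lip+ISO against ISO and 5 in Lip+ISO against Lip. The corresponding shares of all genes were 43.3%, 10.4%, 25.4% and 39.1%.

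**Figure D4:**
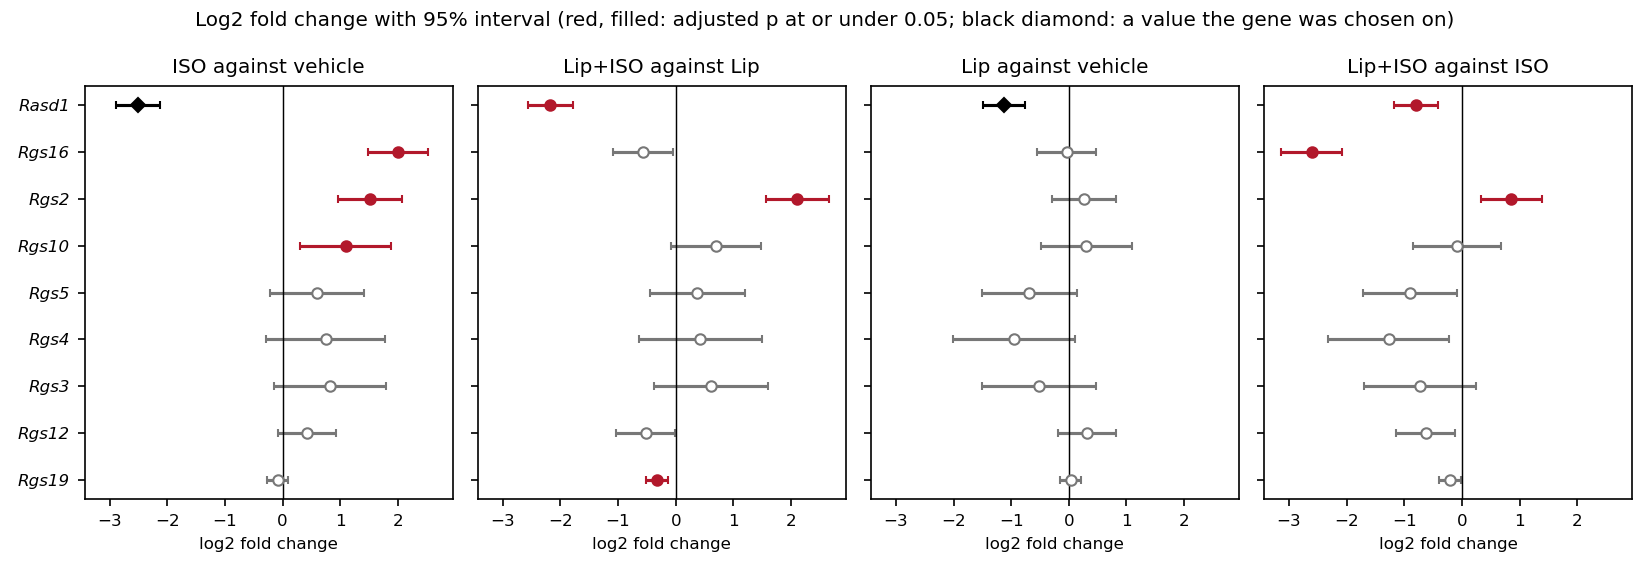
Log2 fold changes of the 9 tested genes in 4 comparisons, with 95% intervals; red filled points have an adjusted p at or under 0.05 and black diamonds mark the values on which Rasd1 was chosen. Rgs16 is at 2.01 in ISO against vehicle and at -0.56 in Lip+ISO against Lip, while Rgs2 is at 1.52 and 2.11.

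Among the patterns most similar to that of Rasd1 over the 12 libraries (Pearson's r of log2 CPM, as a description over libraries that fall into 4 groups) were those of Fam53b (0.985), Zbtb5 (0.982), Elmod3 (0.976) and Ddx19b (0.976). Among the RGS genes, r with Rasd1 ran from -0.94 for Rgs2 and -0.78 for Rgs10 to 0.71 for Rgs19.

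Beside the 10 genes, 65 other G-protein genes were in the table (other RGS domain proteins, receptor kinases and modulators, and alpha, beta and gamma subunits), of which 50 were tested. In ISO against vehicle 4 rose and 10 fell, beside 12.3% of all genes called higher and 13.9% lower. The subunit gene Gng4 rose by 2.31 ± 0.29 on the log2 scale (edgeR, adjusted p = 1.1e-04), Axin2, a scaffold of the Wnt pathway with an RGS domain, fell by 1.40 ± 0.29 (adjusted p = 0.00367), Rgs1 rose by 1.14 ± 0.36 (adjusted p = 0.0319), and Rgs7bp, whose product anchors certain RGS proteins to membranes, rose by 0.94 ± 0.22 (adjusted p = 0.00762). In Lip against vehicle and in the interaction, 0 of the 50 passed by edgeR (2 and 6 had an unadjusted p under 0.05, and DESeq2 called 0 and 2). Of all genes, edgeR called 0.00738% higher and 0.0443% lower in Lip against vehicle, and 0.901% and 0.724% in the interaction.

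Rgs1, a relative of Rgs16 found mainly in immune cells, was higher in ISO than in vehicle and lower in Lip+ISO than in ISO. It was at a mean of 1.30 ± 0.145 CPM in vehicle, 2.90 ± 0.696 in ISO, 0.842 ± 0.365 in Lip and 1.19 ± 0.379 in Lip+ISO, and it fell by 1.27 ± 0.36 from ISO to Lip+ISO (edgeR, adjusted p = 0.0452). This was the only lower call among the 50 genes in that comparison, and 12 of the 15 fits without libraries made no such call, all but those without ISO replicate 1, Lip replicate 1 or Lip replicate 2, nor was it made with no filter or with only the groups compared. Lip+ISO against Lip was 0.51 ± 0.37 for Rgs1 (adjusted p = 0.366), and its interaction was -0.64 ± 0.52 (adjusted p = 0.647). The macrophage markers, given above, were also higher with ISO, and their part in the level of Rgs1 was not tested. Gng4 and Rgs7bp, in contrast, were highest in Lip+ISO, as Rgs2 was. Gng4 averaged 0.757 ± 0.421, 3.74 ± 0.267, 0.967 ± 0.111 and 13.5 ± 0.643 CPM in vehicle, ISO, Lip and Lip+ISO. Rgs7bp averaged 3.35 ± 0.411, 6.46 ± 1.98, 4.05 ± 0.484 and 15.1 ± 1.77. From ISO to Lip+ISO they rose by 1.84 ± 0.26 (adjusted p = 7.1e-04) and 1.24 ± 0.21 (adjusted p = 0.00290) on the log2 scale, and from Lip to Lip+ISO by 3.79 ± 0.29 (adjusted p = 7.5e-07) and 1.90 ± 0.22 (adjusted p = 2.8e-05). Altogether 4 of the 50 rose and 1 fell in Lip+ISO against ISO, beside 4.36% and 4.59% of all genes. In Lip+ISO against Lip 6 rose and 5 fell, beside 11.5% and 15.8% of all genes. Of 11 tested alpha subunit genes, 1 was called higher and 2 lower with ISO, beside 12.3% and 13.9% of all genes. With ISO under inhibitors 2 were called higher and 1 lower, beside 11.5% and 15.8%. Gnaq fell by 0.46 with ISO (edgeR, adjusted p = 0.00253) and by 0.53 with ISO under inhibitors. Gnai3 rose by 0.19 with ISO (adjusted p = 0.0390), by 0.50 with ISO under inhibitors and by 0.34 from ISO to Lip+ISO (adjusted p = 0.00450). Gnal rose by 0.82 with ISO under inhibitors (adjusted p = 0.0486).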

How the data were processed

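The 12 libraries were grouped by the sample titles. The authors deposited raw counts per gene, made from reads aligned to mm9 with STAR 2.4.2a and summarized over RefSeq genes by HOMER and iRNA-seq, with no normalization. The study's text on these cells and the titles name ISO as stimulus, and one legend another compound, so ISO was taken.

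Counts were filtered with filterByExpr, scaled by TMM and fitted with 1 mean per group by edgeR 4.0.16 (quasi-likelihood, two-sided) in R 4.3.3, with Benjamini-Hochberg adjustment over 13543 genes. A gene was called higher or lower, or said to rise or fall, where its adjusted p did not exceed 0.05, whatever the fold change. CPM values are scaled by TMM. SE is that of the log2 fold change. Gene starts, counted from 0 in the table, are printed from 1. Members and lists were chosen with earlier results of these data known. All members were named, Med9 as the overlapping gene, the 5 genes with the highest r with Rasd1 (1 of them is not reported here), and of the other G-protein genes at most 5 called per comparison by size. The tests were checked on simulated counts with 1 spread for all genes and no effect of the replicate number. That check therefore does not cover the pairing seen in these libraries or genes with a larger spread. Alternatives were library totals alone, DESeq2 1.42.0, no filter, a replicate block, only the groups compared, a log2 minimum of 1 and 15 fits without libraries.

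Each group holds replicates 1 to 3, and the study's methods speak of independent experiments for its cultures. Same-numbered libraries deviated together (correlation of deviations from group means over 0.1 for 17 of 18 pairs, -0.33 to 0.09 for other pairs). The lowest same-numbered pair, ISO 3 with Lip+ISO 3, was at 0.0373. On average, each of the 12 libraries correlated best with its own number, so the numbers were taken to pair libraries across all 4 groups. The main fit did not use this pairing, and the replicate block did.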

Additional observations from a re-analysis of the deposited data

Results flagged for a closer look

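The response of Rgs16 to ISO differed with and without lipase inhibitors, by an interaction of -2.57 on the log2 scale (edgeR, adjusted p = 0.00245). The gene was chosen with results of these libraries known, so this p describes it and is no independent evidence. Rgs16 was higher in ISO than in vehicle in 3 of 3 replicate numbers and lower in Lip+ISO than in Lip in 3 of 3. Between libraries of a group, the chi-square per gene was 77.6 for Lip+ISO replicates 1 and 3, and 16.0 to 40.6 for other pairs. Lip+ISO replicate 1 had 17079 genes with a count, and the other libraries 15141 to 16368. No rule for outlying samples was applied, and the main fit kept all 12 libraries.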

How the results depend on the processing

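The number of the 10 genes past the test in ISO against vehicle (4) was 7 with the replicate block and 3 to 5 without libraries. In Lip against vehicle (1, Rasd1) the gene was chosen on that difference, so its call is a description and no test. The number was 0 with only the groups compared (log2 fold change -1.12) and 0 to 1 without libraries. The call was absent without any vehicle library, ISO replicate 1 or 3, Lip replicate 2 or 3, Lip+ISO replicate 2 or any replicate number. The log2 fold change of Rasd1 stayed between -1.33 and -0.99 in the fits without libraries. In Lip+ISO against ISO (3) the number was 1 with the log2 minimum of 1, 6 with the replicate block and 2 to 3 without libraries. The 6 were 1 higher and 5 lower, beside 8.48% and 10.8% of all genes with the block, and 4.36% and 4.59% without it. The block added Rgs4 (-1.34), Rgs5 (-0.96) and Rgs12 (-0.64), and DESeq2 called Rgs4 (-1.26, adjusted p = 0.0455). In Lip+ISO against Lip (3) it was 6 with the replicate block and 2 to 4 without libraries, and for the interaction (1) it was 0 to 1 without libraries. Without Lip replicate 2 Rgs3, and without Lip replicate 3 or replicate 3 of every group Rgs16, passed in Lip+ISO against Lip.

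Of the other G-protein genes, 14 passed in ISO against vehicle, 3 with the log2 minimum and 4 to 16 without libraries. In Lip+ISO against ISO (5) there were 3 with the log2 minimum, 8 with DESeq2, 3 with no filter, 12 with the replicate block, 3 with only the groups compared, and 2 to 6 without libraries. Of all genes, DESeq2 called 6.67% higher and 6.11% lower there, and the block 8.48% and 10.8%. In Lip+ISO against Lip (11) there were 2 with the log2 minimum, 17 with the block and 5 to 12 without libraries. With the block, 15.5% of all genes were higher and 20.1% lower there. In the interaction (0) there were 2 with DESeq2, 2 with the block and 0 to 1 without libraries. Of all genes, DESeq2 called 2.49% higher and 1.79% lower in the interaction, and the block 3.15% and 3.48%.

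The direction turned only in fits without libraries, for values that had not passed: Lip against vehicle for Rgs16 (-0.22 to 0.19; 0.048 and 0.018 without replicate 2 or 3 of every group) and Rgs19 (-0.015 to 0.075, and -0.010 without replicate 3 of every group), Lip+ISO against ISO for Rgs10 (-0.28 to 0.19), Lip+ISO against Lip for Rgs4 (-0.062 to 1.21), and the interactions of Rgs3 (-0.49 to 0.58, and 0.16 without replicate 2 of every group), Rgs4 (-0.80 to 0.48) and Rgs5 (-0.55 to 0.31). The call of Rgs2 in Lip+ISO against ISO was also lost by library totals alone (0.82, adjusted p = 0.0838) and with only the groups compared (0.86, adjusted p = 0.0706), that of Rgs10 in ISO against vehicle likewise (adjusted p = 0.0647 and 0.0632), and that of Rgs19 in Lip+ISO against Lip with only the groups compared (adjusted p = 0.0610). The causes were not tested. Leaving out libraries also lowers the number of samples. With 3 libraries a group, log2 differences of the low genes Rgs3, Rgs4 and Rgs10 carried SEs of 0.35 to 0.49.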
